A study of Homo sapiens with 4 samples.

Results

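A set of 10 genes of the insulin and insulin-like growth factor (IGF) receptor axis were followed: the receptor genes IGF1R, INSR and IGF2R, the adaptor genes IRS1 and IRS2, the ligand gene IGF2 and the binding protein genes IGFBP2, IGFBP3, IGFBP5 and IGFBP6. They were chosen by name, with earlier results of these data known. They were matched by symbol among the 60675 genes of the tables, and each symbol matched 1 gene. RNA had been sequenced from MM134 cells, a line of lobular breast cancer, in 4 libraries. The HER2 L755S line, which carries a substitution in the kinase domain of the receptor tyrosine kinase HER2 (gene ERBB2), gave 2 libraries (HER2 L755S 1 and 2), and the HER2 WT line gave 2 (HER2 WT 1 and 2). Both lines had been kept for 7 days without phenol red in 5% charcoal-stripped serum, which removes estrogen, after growth to 70% confluence. How HER2 was altered or introduced, whether a line was 1 clone, and whether its libraries came from separate cultures are not given in the sources used here. All p-values therefore reflect the spread among the deposited libraries alone, and that spread may be technical.

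Insulin and the IGFs bind related receptor tyrosine kinases, INSR and IGF1R, which phosphorylate the docking proteins IRS1 and IRS2. The docked proteins recruit PI3-kinase and so switch on AKT, which in turn keeps FOXO transcription factors out of the nucleus. IGF2R clears IGF2 by carrying it to lysosomes, and the secreted IGF binding proteins hold the ligands and govern their access to IGF1R. In estrogen receptor positive breast cancer cells this axis is known as a growth signal that works together with the estrogen receptor.

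The lines differed most, among the 10 genes, in IRS2. Its RNA was about 3.33-fold lower in the HER2 L755S line, but this missed the threshold (edgeR, Benjamini-Hochberg adjusted p = 0.060, n = 2 per line). IGF1R, INSR and IRS1 were also lower in both HER2 L755S libraries than in both HER2 WT libraries, by smaller amounts that did not pass the test. Among all tested genes, 19.3% were likewise below without overlap, and 36.2% lacked overlap in either direction. IGF2R and the binding protein genes had overlapping lines, and IGF2 was barely detected. At an adjusted p under 0.05, 0 of the 9 members that could be tested were called, where 1.69% of all 16538 tested genes were called. At an unadjusted p under 0.05 the count was 1 (IRS2), where 10.5% of all tested genes passed. DESeq2 called 1 member, IRS2 (adjusted p = 0.0063), where it called 1.87% of genes lower, and limma-voom called 0.

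The total expected count ran from 27423247 to 31088422 per library. Libraries that shared a replicate number differed from those of the other number, and mitochondrial transcripts took 4.03% and 13.5% of the counts in HER2 L755S 1 and 2, against 4.395% and 8.83% in HER2 WT 1 and 2. Differences are therefore also given within number 1 (HER2 L755S 1 against HER2 WT 1) and within number 2. ERBB2 stood at 2441 and 1202 CPM (scaled counts relative to the library total) in HER2 L755S libraries, against 1932 and 1935 CPM in HER2 WT libraries. Markers of luminal epithelium summed to 6144 and 5065 TPM (a share of all transcripts, corrected for length) in HER2 L755S libraries, against 7681 and 6790 TPM in HER2 WT libraries, and the part of this difference in the results was not tested. KRT19 was the largest part of each sum. Taken singly, the luminal markers went both ways and none passed the threshold. Log2 fold changes, HER2 L755S over HER2 WT, were -1.29 for ESR1, -0.36 for KRT19, -0.12 for KRT18, -0.03 for KRT8 and -0.005 for SPDEF. They were 0.52 for EPCAM, 0.39 for GATA3 and 0.30 for FOXA1. Markers of leukocytes summed to at most 0.35 TPM, and those of basal epithelium to at most 0.53 TPM. Of 7 markers of fibroblasts and endothelium, COL1A1 made up nearly all of the 14.7 to 37.6 TPM, while PECAM1 was at 0. The collagen genes differed by replicate number. COL1A2 had 6 and 49 expected counts in HER2 L755S 1 and 2, against 0 and 45 in HER2 WT 1 and 2. COL3A1 had 0 and 32, against 1 and 53, in the same order. COL1A1 went the other way, with 3332 and 1501, against 3253 and 1481. In bulk RNA, fewer cells expressing a gene and less of its RNA per cell cannot be told apart.

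Levels are compared between genes in TPM. IGFBP2 was the most abundant member, at 268 and 177 TPM in HER2 L755S libraries, against 240 and 154 TPM in HER2 WT libraries. A middle group followed, with means over the 4 libraries of 13.7 TPM for IGF2R, 12.9 TPM for IGFBP3, 11.9 TPM for IGF1R and 8.43 TPM for IRS1, and the ranges of neighbours in this order overlapped. INSR averaged 3.34 TPM, below every library's value for IRS1. IGFBP5, IRS2 and IGFBP6 averaged 1.25, 0.838 and 0.683 TPM with overlapping ranges, and IGF2 averaged 0.025 TPM. TPM carried a shift of the whole library: the median tested gene was 0.33 lower on the log2(TPM + 0.1) scale in HER2 L755S 2 than in HER2 WT 2, against 0.023 lower within number 1. The lines are therefore compared on scaled CPM, where the median log2 fold change of all tested genes was 0.0032.

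**Figure D1:**
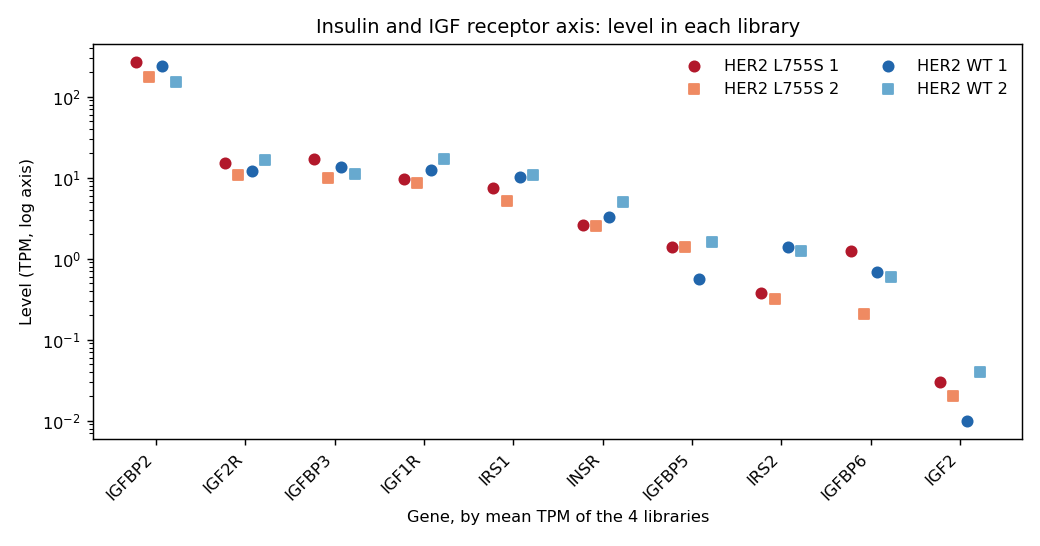
Level of each member in the 4 libraries, in TPM on a log axis, with 1 point per library and genes ordered by their mean. IGFBP2 stands above all other members in each library, IRS2 is the gene whose lines are farthest apart without overlap, and IGF2 lies near 0 at 0.01 to 0.04 TPM.

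IRS2 (ENSG00000185950, GRCh38 chromosome 13, 109752698 to 109786568, minus strand) encodes a docking protein of the insulin and IGF1 receptors. Its expected counts were 68.3 and 64.6 in HER2 L755S libraries, against 271 and 227 in HER2 WT libraries. Scaled, these came to 2.32 and 2.53 CPM in HER2 L755S libraries, against 8.37 and 7.81 CPM in HER2 WT libraries. The 2 libraries of each line lay close together and the lines were far apart. The log2 fold change was -1.74 (SE 0.40), with -1.84 within number 1 and -1.62 within number 2. By its p-value IRS2 was the 336th of the 16538 tested genes in the edgeR test, while 279 genes were called. Of 14 alternatives, 3 placed IRS2 past the threshold, among them DESeq2 and edgeR without a filter on low counts (adjusted p = 0.0094), where 1.58% of genes were called lower. Over the alternatives its adjusted p ran up to 0.17 and its log2 fold change from -1.81 to -0.78, the weakest on the scale of log2(TPM + 1), which understates changes of low genes. The IRS2 counts were not whole in any library, so part of its reads also fitted other genes.

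IRS1 (ENSG00000169047, chromosome 2, 226731317 to 226799759, minus strand), the paralog of IRS2, stood at 55.6 and 44.5 CPM in HER2 L755S libraries, against 68.7 and 73.9 CPM in HER2 WT libraries. Both HER2 L755S values were below both HER2 WT values, though by less than for IRS2. Its log2 fold change was -0.51 (SE 0.32), with -0.31 within number 1 and -0.73 within number 2, and did not pass (edgeR, Benjamini-Hochberg adjusted p = 0.75).

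Because IRS2, IRS1, IGF1R and INSR were the members below without overlap, the 250 bases upstream of their RefSeq starts (GRCh38.p14) are shown, 5′ to 3′ on the strand of the gene. Capitals mark GGGCGG, the GC box bound by SP1, and TGTTTTG, the insulin response motif that FOXO factors bind in the IGFBP1 promoter, on either strand.
IRS2 (chr13:109786584-109786833, minus strand): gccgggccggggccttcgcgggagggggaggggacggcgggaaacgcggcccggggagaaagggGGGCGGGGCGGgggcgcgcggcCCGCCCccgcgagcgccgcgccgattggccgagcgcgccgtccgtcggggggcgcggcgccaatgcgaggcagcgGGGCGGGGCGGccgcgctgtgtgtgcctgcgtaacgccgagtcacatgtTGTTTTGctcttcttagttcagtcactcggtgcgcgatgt
IRS1 (chr2:226799821-226800070, minus strand): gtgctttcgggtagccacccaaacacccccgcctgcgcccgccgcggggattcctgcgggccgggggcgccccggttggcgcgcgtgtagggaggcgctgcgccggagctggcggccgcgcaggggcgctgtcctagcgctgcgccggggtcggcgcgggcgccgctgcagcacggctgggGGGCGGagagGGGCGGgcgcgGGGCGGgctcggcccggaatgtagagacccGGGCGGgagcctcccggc
IGF1R (chr15:98648289-98648538, plus strand): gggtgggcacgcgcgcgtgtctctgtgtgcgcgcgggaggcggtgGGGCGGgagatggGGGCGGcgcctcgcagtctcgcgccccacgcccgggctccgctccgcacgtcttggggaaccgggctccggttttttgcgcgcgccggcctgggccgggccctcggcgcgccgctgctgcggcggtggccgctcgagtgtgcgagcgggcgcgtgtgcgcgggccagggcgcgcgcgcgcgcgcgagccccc
INSR (chr19:7294415-7294664, minus strand): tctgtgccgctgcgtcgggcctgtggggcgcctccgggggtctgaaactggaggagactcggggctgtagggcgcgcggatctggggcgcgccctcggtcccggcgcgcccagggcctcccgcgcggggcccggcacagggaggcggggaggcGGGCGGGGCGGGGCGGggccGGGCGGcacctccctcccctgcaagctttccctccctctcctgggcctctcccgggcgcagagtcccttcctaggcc
TGTTTTG occurred in IRS2, beginning 40 bases before the start, and in none of the other 10 windows of members. Of 35116 RefSeq windows of this length, 4.30% held it on either strand. The member windows had 56.4% to 81.2% G and C, against a median of 58% over all windows, and a GC-rich motif is met more often in GC-rich sequence. GGGCGG occurred in 9 of the 11 windows of the 9 members with a RefSeq entry, and in 42.6% of all windows; overlapping copies were counted, with 5 in IRS2, 4 in IRS1, 4 in INSR and 2 in IGF1R. The full palindrome of the estrogen response element, GGTCA and TGACC with 3 bases between them, was found in 0 member windows and 0.0399% of all windows. TGTTTAC, another forkhead motif, was in 1 member window (IGFBP6) and 2.98% of all windows. CACGTG, an E-box, was in 1 (IGF2R, 3 copies) and 6.35%, and the AP-1 motif TGANTCA in 0 and 6.57%. These are matches of letters in a window and no evidence of binding.

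The kinase receptor genes had similar differences. IGF1R (ENSG00000140443, chromosome 15, 98648539 to 98964530), the receptor of IGF1 and IGF2, stood at 83.5 and 97.1 CPM in HER2 L755S libraries, against 108 and 151 CPM in HER2 WT libraries. The lines did not overlap, and HER2 WT 2 was the highest library. The log2 fold change of IGF1R was -0.52 (SE 0.32), with -0.37 within number 1 and -0.64 within number 2 (edgeR, Benjamini-Hochberg adjusted p = 0.74). INSR (ENSG00000171105, chromosome 19, 7112255 to 7294034), the insulin receptor, stood at 16.3 and 18.8 CPM in HER2 L755S libraries, against 21.5 and 33.0 CPM in HER2 WT libraries. Again the lines did not overlap and HER2 WT 2 was the highest. Its log2 fold change was -0.63 (SE 0.35), with -0.40 and -0.81 within numbers 1 and 2 (edgeR, Benjamini-Hochberg adjusted p = 0.66). Without HER2 WT 2 the log2 fold changes were -0.23 for IGF1R and -0.28 for INSR.

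IGF2R (ENSG00000197081, chromosome 6, 159969099 to 160113507) encodes a mannose 6-phosphate receptor, which has no kinase domain. It stood at 164 and 102 CPM in HER2 L755S libraries, against 118 and 152 CPM in HER2 WT libraries. The lines overlapped, with the highest and the lowest value both in HER2 L755S. IGF2R was higher in HER2 L755S within number 1 (0.47) and lower within number 2 (-0.58), and its log2 fold change over all 4 libraries was -0.02 (SE 0.34, edgeR, Benjamini-Hochberg adjusted p = 1.00). The mean transcript length that RSEM assigned to IGF2R also varied, at 14044 and 9719 bases in HER2 L755S libraries, against 13203 and 11878 bases in HER2 WT libraries. It was shortest in HER2 L755S 2, the library with the largest mitochondrial share; the part of that share in this value was not tested. Of the other genes of mannose 6-phosphate sorting, 0 of 8 tested were called, where 1.69% of all tested genes were called.

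**Figure D2:**
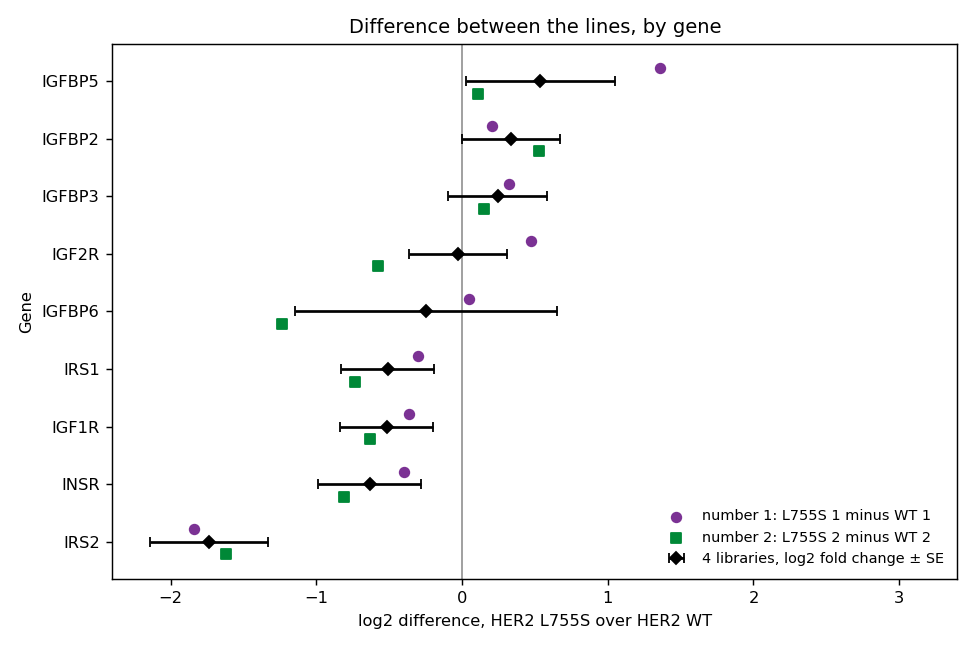
Log2 difference of HER2 L755S over HER2 WT for the 9 tested members, with black diamonds for all 4 libraries (bars, SE) and coloured points for the differences within each replicate number, on the log2 CPM scale. IRS2 is at -1.84 and -1.62 within the numbers, IGF1R, INSR and IRS1 are below 0 in both, and IGF2R and IGFBP6 have opposite signs.

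Ratios of levels per length, computed from expected count over effective length after the values had been seen, show how the members stood to each other within a library. The ratio of IRS1 to IRS2 was 19.9 and 16.0 in HER2 L755S libraries, against 7.34 and 8.62 in HER2 WT libraries, without overlap. IRS1 was thus the more abundant of these docking protein genes in all 4 libraries, and by a wider margin in the HER2 L755S line. The ratio of IGF1R to INSR was 3.74 and 3.33 in HER2 L755S libraries, against 3.78 and 3.44 in HER2 WT libraries. It varied more between the replicate numbers than between the lines. For IGF2R to IGF1R the ratio was 1.58 and 1.27 in HER2 L755S libraries, against 0.975 and 0.969 in HER2 WT libraries. These per-length values did not overlap, but the effective length of IGF2R varied, with 9495 bases for HER2 L755S 2 and 12985 for HER2 WT 1. By expected counts alone, HER2 L755S 2 (IGF2R 2615, IGF1R 2496) had a lower ratio than HER2 WT 1 (3821 and 3486). Without division by length the lines thus overlapped. The other per-length ratios that were computed overlapped between the lines. IGF1R to IRS1 was 1.28 and 1.655 in HER2 L755S libraries, against 1.20 and 1.585 in HER2 WT libraries. IGFBP2 to IGFBP3 was 15.65 and 18.1, against 17.94 and 13.73, in the same order. IGFBP3 to IGFBP5 was 12.24 and 6.993, against 23.98 and 6.856. With 2 libraries per line an exact permutation test cannot reach a p of 0.05, and none was run on these ratios.

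**Figure D3:**
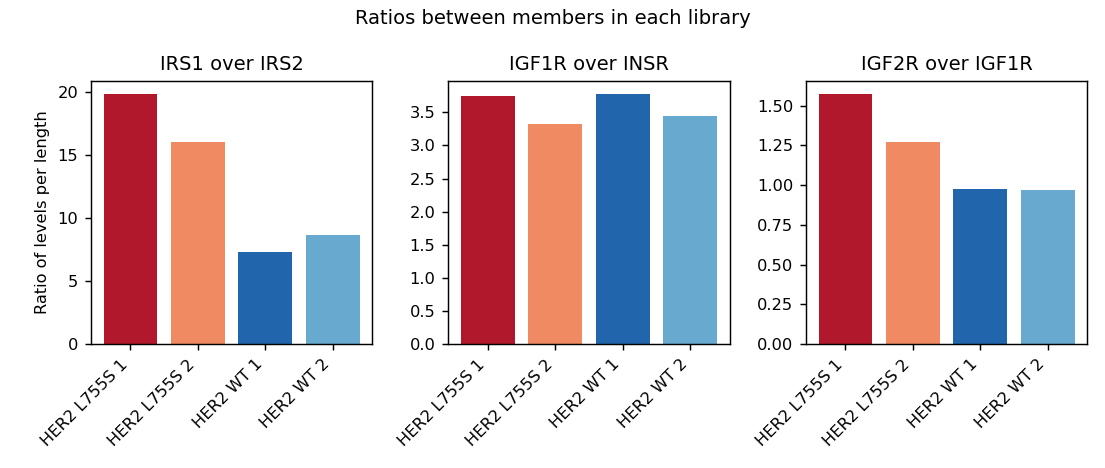
Ratio of the per-length levels of IRS1 to IRS2, IGF1R to INSR and IGF2R to IGF1R in each library, as bars from 0. The first ratio is at 16.0 to 19.9 in HER2 L755S and 7.34 to 8.62 in HER2 WT libraries, while the second lies between 3.33 and 3.78 in all 4.

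The ligand IGF2 (ENSG00000167244, chromosome 11, 2129112 to 2149603, minus strand) had expected counts of 3.05 and 2.04 in HER2 L755S libraries, against 1 and 4 in HER2 WT libraries. These counts are too low for a fold change, and IGF2 did not pass the filter on low counts. The genes of the other ligands, IGF1 and insulin (INS), had at most 1 and 2 counts in a library. H19, the imprinted RNA gene next to IGF2, had 6 and 0 counts in HER2 L755S libraries, against 6 and 7 in HER2 WT libraries. RLN2, the relaxin gene, was the 1 ligand of the insulin superfamily list that was tested, with a log2 fold change of -0.74 (SE 0.43, edgeR, Benjamini-Hochberg adjusted p = 0.68).

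The binding protein genes did not separate the lines. IGFBP2 (ENSG00000115457, chromosome 2, 216632828 to 216664436) stood at 179 and 138 CPM in HER2 L755S libraries, against 155 and 95.8 CPM in HER2 WT libraries. It was higher in HER2 L755S within both numbers, at 0.20 and 0.53, but number 1 libraries were higher than number 2 libraries in both lines, so that the lines overlapped (log2 fold change 0.34, SE 0.34, edgeR, Benjamini-Hochberg adjusted p = 0.93). IGFBP5 (ENSG00000115461, chromosome 2, 216672105 to 216695525, minus strand) lies next to IGFBP2 in the opposite orientation. Its values were 6.53 and 8.33 CPM in HER2 L755S libraries, against 2.53 and 7.71 CPM in HER2 WT libraries. HER2 WT 1 stood apart from the other 3 libraries. The log2 fold change of IGFBP5 was 0.54 (SE 0.51), with 1.36 within number 1 and 0.11 within number 2 (edgeR, Benjamini-Hochberg adjusted p = 0.92), and it was -0.05 without HER2 WT 1 and 1.57 without HER2 WT 2.

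IGFBP3 (ENSG00000146674, chromosome 7, 45912245 to 45921874, minus strand), the main carrier of IGFs in blood, stood at 26.8 and 20.4 CPM in HER2 L755S libraries, against 21.5 and 18.4 CPM in HER2 WT libraries. The lines overlapped, with a log2 fold change of 0.25 (SE 0.34, 0.32 and 0.15 within numbers 1 and 2, edgeR, Benjamini-Hochberg adjusted p = 0.98). IGFBP6 (ENSG00000167779, chromosome 12, 53097436 to 53102345), which prefers IGF2 over IGF1, had 14 and 2 counts in HER2 L755S libraries, against 15 and 6 in HER2 WT libraries. It passed the filter on low counts through the libraries of number 1, and its log2 fold change of -0.25 had an SE of 0.90. The binding proteins IGFBP1 to IGFBP7 together gave 408 and 268 TPM in HER2 L755S libraries, against 390 and 284 TPM in HER2 WT libraries. IGFBP2 made up 65.8% and 66.2% of that sum in HER2 L755S libraries, against 61.7% and 54.1% in HER2 WT libraries. IGFBP4, which is no member, was next, with 29.3% and 29.4% in HER2 L755S libraries, against 34.5% and 41.2% in HER2 WT libraries. These are shares of the same sum, so a larger share of IGFBP2 leaves less for IGFBP4. IGFBP4 itself overlapped between the lines, at 184 and 154 CPM in HER2 L755S libraries, against 202 and 182 CPM in HER2 WT libraries. Its log2 fold change was -0.18 (SE 0.30, edgeR, Benjamini-Hochberg adjusted p = 0.99). IGFBP1, a gene induced by FOXO factors in liver, was at 0 counts in all 4 libraries.

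Over the members, 4 of the 9 tested had both HER2 L755S libraries below both HER2 WT libraries and 0 had them above. Of all tested genes, 19.3% were below and 16.9% above in this way, 36.2% in all. The median log2 fold change was -0.25 over the 9 tested members (0.05 within number 1 and -0.64 within number 2), and 0.0032 over all tested genes (0.011 and 0.0030 within the numbers). The medians of -0.25 and 0.05 are the values of a single gene of few counts, IGFBP6, whose SE was 0.90. The next member up was IGF2R, at -0.02.

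Around the members, 104 other genes of 9 lists of the pathway were looked up, and 83 of them were tested. The lists, too, were chosen with earlier results of these data known. TXNIP, which encodes an arrestin that restrains glucose uptake, was the 1 gene called. It fell to 2.87 and 2.84 CPM in HER2 L755S libraries, against 15.4 and 9.91 CPM in HER2 WT libraries (log2 fold change -2.15, SE 0.41, edgeR, Benjamini-Hochberg adjusted p = 0.026). The call was lost without HER2 WT 1 (adjusted p = 0.0502) and on log2(TPM + 1) values with limma (0.0513). Of the 83 genes 1 was thus called lower and 0 higher, where 0.949% of all tested genes were called lower and 0.738% higher. Members included, median log2 fold changes of the lists ran from -0.74 to 0.35. The lowest was that of the ligands of the insulin superfamily, where the relaxin gene RLN2 was the only tested gene. IGF1, IGF2 and INS could not be tested. The 3 tested receptors were all members (IGF1R, INSR and IGF2R), and their median of -0.52 is the value of IGF1R. The highest was that of the 6 tested genes of glucose uptake and response. The 24 receptor adaptors had a median of -0.02 and the 22 tested genes of the PI3K-AKT-FOXO relay a median of 0.059. The median log2 fold change of the 83 genes was 0.029 (0.11 within number 1 and -0.087 within number 2), and 39 were below 0.

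Of the genes named from these lists that did not pass, GAB2 and STC2 were nearest to the threshold. STC2, which encodes a stanniocalcin that blocks the IGFBP protease PAPP-A, stood at 29.7 and 14.9 CPM in HER2 L755S libraries, against 57.6 and 127 CPM in HER2 WT libraries (log2 fold change -2.05, SE 0.46, adjusted p = 0.053, edgeR). The gene of that protease, PAPPA, was barely detected, with 1 and 9 counts in HER2 L755S libraries, against 4 and 6.23 in HER2 WT libraries. The fold changes of STC2 within the numbers were -0.95 and -3.09 on the log2 scale. Over all libraries but 1, STC2 was at -1.36 without HER2 WT 2 and -1.65 without HER2 L755S 2 (adjusted p = 0.13 and 0.064, edgeR), and -2.51 without HER2 WT 1 and -2.63 without HER2 L755S 1 (2.6e-05 and 0.00036). Its paralog STC1 was higher in both HER2 L755S libraries, with a log2 fold change of 0.74 (SE 0.32, adjusted p = 0.42, edgeR). GAB2, an adaptor gene that links receptors to PI3-kinase, stood at 38.8 and 26.2 CPM in HER2 L755S libraries, against 87.6 and 101 CPM in HER2 WT libraries (log2 fold change -1.54, SE 0.34, adjusted p = 0.051, edgeR). The adjusted p of GAB2 lay on either side of the threshold: 0.026 without HER2 WT 1 and 0.021 without HER2 L755S 1, but 0.084 without HER2 WT 2 and 0.24 without HER2 L755S 2. It was 0.049 with the size factors of DESeq2 and 0.045 with limma-voom, and 0.12 and 0.095 with limma on log2(TPM + 1) and log2(TPM + 0.1). Another docking protein gene, IRS4, was low at 1.26 and 0.428 CPM in HER2 L755S libraries, against 2.32 and 3.10 CPM in HER2 WT libraries (adjusted p = 0.26, edgeR). Its log2 fold change was -1.66, with -2.65 without HER2 L755S 1 and -1.11 without HER2 L755S 2 (adjusted p = 0.031 and 0.79, edgeR). ADAM9, which encodes a membrane metalloprotease, stood at 194 and 195 CPM in HER2 L755S libraries, against 301 and 442 CPM in HER2 WT libraries (log2 fold change -0.93, SE 0.31, adjusted p = 0.22, edgeR). In the PI3K-AKT-FOXO list, FOXO1 had a log2 fold change of -0.69 and TSC2 one of -0.45 (adjusted p = 0.83 and 0.86, edgeR).

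Among the named genes with a positive log2 fold change, none passed the threshold in this fit. TRIB3, a pseudokinase gene whose protein binds AKT, stood at 119 and 41.6 CPM in HER2 L755S libraries, against 34.0 and 18.1 CPM in HER2 WT libraries (log2 fold change 1.62, SE 0.49, adjusted p = 0.16, edgeR). The log2 fold change of TRIB3 depended on single libraries: it was 0.67 without HER2 L755S 1 and 1.24 without HER2 WT 2 (adjusted p = 0.75 and 0.27, edgeR), and 2.15 without HER2 WT 1 and 2.18 without HER2 L755S 2 (0.0061 and 0.00050). PIK3R1, which encodes a regulatory subunit of PI3-kinase, stood at 60.7 and 91.4 CPM in HER2 L755S libraries, against 34.0 and 47.0 CPM in HER2 WT libraries (log2 fold change 0.91, SE 0.35, adjusted p = 0.33, edgeR). The adaptor gene SHC2 had a log2 fold change of 1.29 (SE 0.52, adjusted p = 0.37, edgeR). It was 0.65 without HER2 L755S 1 and 0.71 without HER2 WT 2 (adjusted p = 0.77 and 0.89, edgeR), and 2.29 without HER2 WT 1 and 1.71 without HER2 L755S 2 (0.0037 and 0.023). SOCS6, of a family that restrains receptor signalling, had a log2 fold change of 0.80 (SE 0.36, adjusted p = 0.46, edgeR). The glucose transporter gene SLC2A1 was at -0.66 and the hexokinase gene HK2 at 0.64, and neither passed (edgeR, adjusted p = 0.46 and 0.55).

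**Figure D4:**
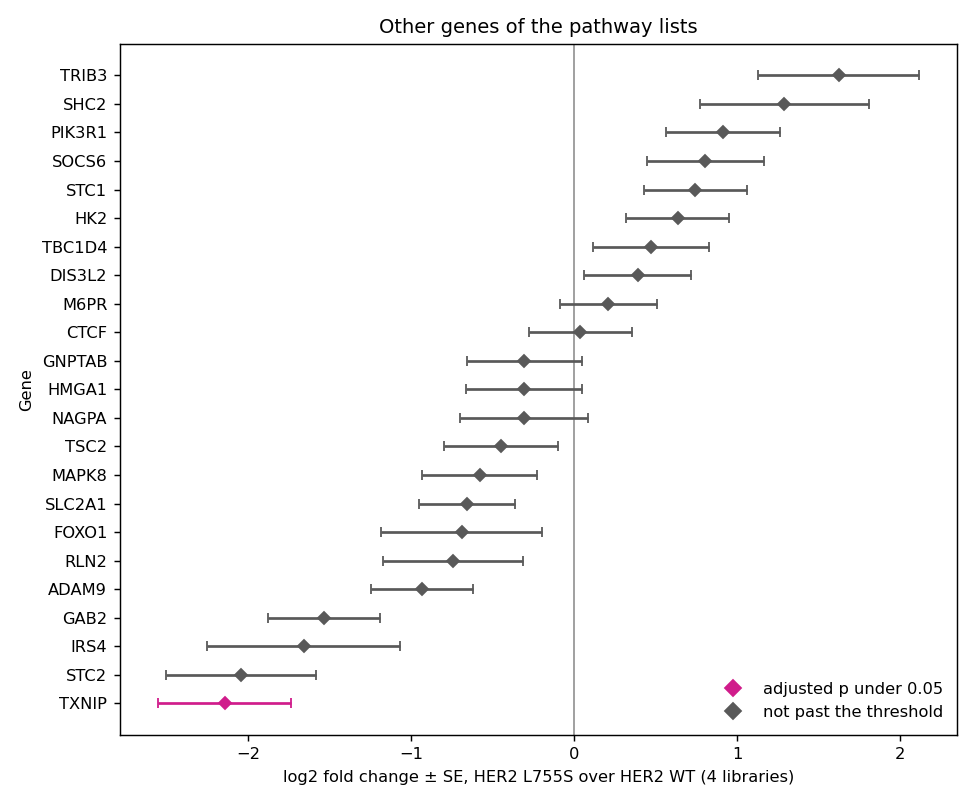
Log2 fold change of HER2 L755S over HER2 WT (diamonds; bars, SE; 4 libraries) for the 23 other genes named by rule from the pathway lists. TXNIP, at -2.15, is the 1 gene past the threshold, and STC2, IRS4 and GAB2 lie at -2.05, -1.66 and -1.54 without passing.

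By the root mean square distance of log2 CPM centred over the 4 libraries, the genes closest to IRS2 were C9orf3 (0.050), PPP1R1B (0.075) and CD59 (0.079), among genes of at least 5 CPM on average over the 4 libraries. Closest to INSR were EML6 (0.027), CTR9 (0.038) and OGFRL1 (0.039). With 4 libraries this is a description of profiles only.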

How the data were processed

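RNA of 4 libraries was sequenced. Per the labels' protocols, 250 ng of RNA went into poly(A)-selected TruSeq libraries. The 4 deposited tables are RSEM output per the file headers: an expected count per gene, which need not be whole, and TPM and FPKM values made by the authors (FPKM was not used). STAR, edgeR and GRCh38 are named in the submitters' processing notes without version or role; neither annotation release nor strand setting is given in the sources used here. Those of number 2 are named as merged; what was merged is not stated. RSEM divides reads that fit several genes, and 9.53% to 11.5% of genes had a count that was not whole.

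Expected counts were rounded. Genes passing filterByExpr (16538 of 60675) were tested in edgeR 4.0.16 by quasi-likelihood (R 4.3.3, TMM factors 0.937 to 1.04, two-sided, no replicate term), with Benjamini-Hochberg adjustment over all of them and a threshold of 0.05. A positive fold change means higher in HER2 L755S. Differences within a number are on log2 CPM (prior count 0.5). The fit was tested on simulated data, drawn with its own trended dispersion and without any effect of the replicate number. That test cannot show how the fit behaves where libraries differ by replicate number, as they did here. Alternatives used DESeq2 1.42.0 and limma 3.58.1, other scalings, filters and thresholds, a replicate term, and leaving out each library. Where 1 library is left out, the spread of its line is taken from the other line. Named genes are the members, called genes of the lists, up to 3 others per list by lowest p, and the 3 genes nearest in profile to the 2 members of lowest p, without clone-based names. Positions are from GENCODE 29 (GRCh38), sequences from RefSeq (GRCh38.p14). Members and lists were chosen with earlier results of these data known.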

Additional observations from a re-analysis of the deposited data

How the results depend on the processing

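Of the 14 alternatives, the stricter threshold of 0.01 reused the main fit and so could not change a direction. IGF1R, INSR, IRS1, IRS2, IGFBP2 and IGFBP3 kept their direction under all 14 alternatives. IRS2 was past the threshold under 3 of them, which made the count of members called lower 1 with DESeq2, with no filter and with a replicate block, against 0 otherwise; the count of members called higher was 0 throughout. Without 1 library, log2 fold changes ran from -0.41 to 0.26 for IGF2R, from -0.054 to 1.57 for IGFBP5, from -2.06 to 0.48 for IGFBP6, from -1.81 to -1.68 for IRS2, from -0.060 to 0.11 for CTCF, from -0.65 to 0.17 for GNPTAB, from -0.62 to 0.077 for HMGA1 and from -0.61 to 0.056 for NAGPA. IGFBP6 was at 0.014 on log2(TPM + 1), and could not be fitted with the filter of 50 counts. CTCF was at -0.031 with no scaling, -0.11 on log2(TPM + 1) and -0.12 on log2(TPM + 0.1). The median of all tested genes moved to -0.13 and -0.17 on these TPM scales.

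Over all genes, 122 were called higher and 157 lower. Counts were 276 and 309 with DESeq2, 328 and 431 with no filter and 49 and 49 at an adjusted p under 0.01. Higher genes numbered 63 on log2(TPM + 1) and 79 on log2(TPM + 0.1). Leaving out 1 library gave 165 to 219 higher and 177 to 338 lower genes. Of the other pathway genes, 0 were called higher and 1 lower. DESeq2 called 1 higher (TRIB3) and 3 lower (GAB2, STC2 and TXNIP). With no filter, 2 were called higher (SHC2 and TRIB3) and the same 3 lower. Lower genes numbered 2 with the size factors of DESeq2, 2 with limma-voom, 3 with the filter of 50 counts, 0 on log2(TPM + 1) and 0 at an adjusted p under 0.01. Leaving out 1 library gave 0 to 2 higher and 1 to 4 lower. The cause of these changes was not tested.

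With a replicate block, 725 genes were called higher and 1018 lower, of the other pathway genes 5 (PIK3R1, SHC2, SOCS6, STC1 and TRIB3) and 6 (ADAM9, GAB2, IRS4, SLC2A1, STC2 and TXNIP), and of the members IRS2 (adjusted p = 0.0011). Deviations of same-numbered libraries from their line means correlated at 0.42 over the tested genes, but the labels do not say what the number stands for. Genes of few counts, such as IGF2 and IGFBP6, are limited by depth.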
